A study of Mus musculus with 4 samples.

Results

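The transcripts examined were those of 9 genes for very large scaffold and cytolinker proteins of the cytoskeleton: Ahnak, Ahnak2, Macf1, Dst, Plec, Syne1, Syne2, Dsp and Flna. They were picked by symbol from the 52189 genes of the deposited table, and all 9 entered the 16647 genes tested. The genes were proposed with results of these data known, among them the high values of Ahnak with the SAFB antibody, so their own differences between antibodies are a description. The text says which of them passed the threshold of the fit to all genes, and nothing is read from that. In RIP-seq, RNA that comes down with a protein on an antibody is sequenced. Here the antibody was either against SAFB, the scaffold attachment factor B, which sits in the nuclear matrix and binds both DNA and RNA, or control IgG. All libraries came from AML12, a hepatocyte line of the mouse, grown with serum and dexamethasone. Nuclei were lysed after the cells had been exposed to ultraviolet light, which crosslinks RNA to bound protein. The SAFB RIP and the IgG RIP have 2 libraries each. The labels do not say that the 2 libraries of a group came from separate cultures, so errors and p-values measure only the spread between these libraries, which may be technical. Which RNAs are associated with SAFB is the question that the comparison of the antibodies addresses.

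Plakins are long rod-shaped proteins that tie filament systems to each other and to cell junctions. Macf1 and Dst encode spectraplakins, which link actin to microtubules. Plec encodes plectin, which links intermediate filaments to actin and to hemidesmosomes, and Dsp encodes desmoplakin, which anchors intermediate filaments at desmosomes. Syne1 and Syne2 encode nesprins, giant proteins of the outer nuclear membrane that join the cytoskeleton to SUN proteins in the nuclear envelope. Flna encodes filamin A, which crosslinks actin filaments. Ahnak and Ahnak2 encode scaffold proteins built from long internal repeats, and AHNAK binds the S100A10 and annexin A2 complex under the plasma membrane. In hepatocytes, keratins 8 and 18 form the intermediate filaments on which the plakins act. SAFB proteins are known from crosslinking studies to contact purine-rich RNA, among it the word GAAGA.

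Ahnak has its coding sequence in nearly a single exon, so its nucleotide sequence carries the protein repeats without interruption. In the longest coding model, 16623 of 16968 coding bases (97.97%) lie in 1 exon. Compared with itself at shifts of 30 to 1500 bases, the Ahnak coding sequence matched best at a shift of 384 bases, where 46.4% of bases were identical, against a median of 27.7% over all shifts.

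None of the other 8 coding sequences matched itself as well except that of Ahnak2, which reached 56.8% at a shift of 519 bases. The Ahnak2 model has 5216 coding bases, which is not a whole number of codons, so this model is incomplete. Flna matched best at a shift of 291 bases (29.5% identical, median 26.8%) and Plec at 114 bases (33.2%, median 30.7%). No 50-base word of the Ahnak, Ahnak2, Macf1, Syne2 or Flna models occurred in an annotated transcript of another gene. The shares were 5.73% for Dst and 4.72% for Dsp, mostly with annotated transcripts on the opposite strand, 0.0861% for Syne1 and 0.00649% for Plec. Those opposite-strand entries (Gm26788 and A930005N03Rik at Dst, Gm10129 at Dsp) were listed at 0 or below 1 TPM in every library.

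The purine-rich word GAAGA occurs in the coding sequence of genes whose RNA was higher with the SAFB antibody and of genes whose RNA was not. For Dst, Dsp, Syne2, Plec and Flna, the 90 coding bases within 1 exon that hold the most copies are given here, read in the direction of the RNA. Capitals mark GAAGA. The stretches hold 3 copies in Dst, 3 in Dsp, 4 in Syne2, 3 in Plec and 2 in Flna. In the genes not printed, such a stretch holds 1 copy in Ahnak, 2 in Ahnak2, 2 in Macf1 and 3 in Syne1.
Dst (chr1:34229108-34229197, plus strand): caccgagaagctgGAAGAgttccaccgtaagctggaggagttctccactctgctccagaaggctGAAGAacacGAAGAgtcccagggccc
Dsp (chr13:38192980-38193069, plus strand): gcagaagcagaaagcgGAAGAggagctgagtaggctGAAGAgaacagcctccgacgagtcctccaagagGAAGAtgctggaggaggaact
Syne2 (chr12:75934534-75934623, plus strand): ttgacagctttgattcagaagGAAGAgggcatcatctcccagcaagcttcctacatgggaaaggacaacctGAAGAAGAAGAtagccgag
Plec (chr15:76180926-76181015, minus strand): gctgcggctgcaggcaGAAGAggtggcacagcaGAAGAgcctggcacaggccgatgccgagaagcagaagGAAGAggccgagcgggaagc
Flna (chrX:74241802-74241891, minus strand): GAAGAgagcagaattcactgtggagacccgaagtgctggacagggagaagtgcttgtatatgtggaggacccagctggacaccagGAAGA

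All positions are on mm10, with the gene models and sequences of GENCODE release M21. Values are TPM, transcripts per 1000000, a share of each library scaled for transcript length, so levels can be compared between genes. Read depth is unknown because TPM does not keep it, and no counting interval is given. Fold changes are differences of log2(TPM + 1) between the SAFB RIP and the IgG RIP, with standard errors (SE) from limma fitted to all 16647 genes tested. A gene counts as called at a Benjamini-Hochberg adjusted p of 0.05. Over all genes tested, log2 fold changes had a median of 0.46. After each library was centred on its median it was -0.003, so values after centring are given as well. Between libraries of the SAFB RIP log2(TPM + 1) correlated at r = 0.978 across genes, and between libraries of the IgG RIP at r = 0.923. Hepatocyte markers were present: summed TPM of 8 genes, among them Alb, Hnf4a, Krt8 and Krt18, was 6280 and 6532 in the SAFB RIP and 7430 and 7458 in the IgG RIP. Of 4 biliary markers Krt7, Krt19 and Sox9 were also present and Epcam was below 1 TPM, with sums for the list of 869.9 and 900.5 TPM in the SAFB RIP and 1265 and 910.04 TPM in the IgG RIP. Lists of fibroblast, endothelial and muscle markers summed to under 2 TPM in every library. Of 4 blood cell markers Adgre1 was listed at 0 in all libraries, and the list summed to 34.3 and 22.7 TPM in the SAFB RIP and 13.5 and 8.62 TPM in the IgG RIP, most of it Cd68. These lists' part in the results below was not tested. RNA of the target's own gene, Safb, stood at 988 and 880.1 TPM in the SAFB RIP and at 169.8 and 161 TPM in the IgG RIP. These values do not measure SAFB protein on the antibody. In bulk libraries fewer cells of a type and less RNA per cell cannot be told apart, and the input was not analysed here, so abundance in the nucleus and recovery cannot be told apart either.

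Macf1, Dst, Ahnak, Dsp, Ahnak2 and Syne2 had higher TPM with the SAFB antibody, by 1.99-fold to 4.34-fold. Syne1 had a fold change close to that of the median gene and was not called. Plec and Flna had lower TPM with the SAFB antibody and were not called as deposited. In all, limma called 6 of 9 higher and 0 lower (7 and 0 at an unadjusted p under 0.05), while 29.8% of all genes tested were called higher and 8.3% lower. After median centring the same 6 were higher, and Plec and Flna were called lower, where 16.4% of all genes were called higher and 17.6% lower. Quantile normalization called the same 6 higher and Plec lower (16.6% and 17.9% of all genes). With protein-coding genes scaled alone, the same 6 were higher and Plec and Flna lower, against 21.5% and 19.2% of 12119 genes. The 2 libraries with the SAFB antibody were both above the 2 with IgG for 7 genes and both below for 2, against 52.3% and 21.4% of all genes tested. Together the 9 genes took 0.858% and 0.890% of the TPM in the SAFB libraries and 0.356% and 0.355% in the IgG libraries.

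**Figure D1:**
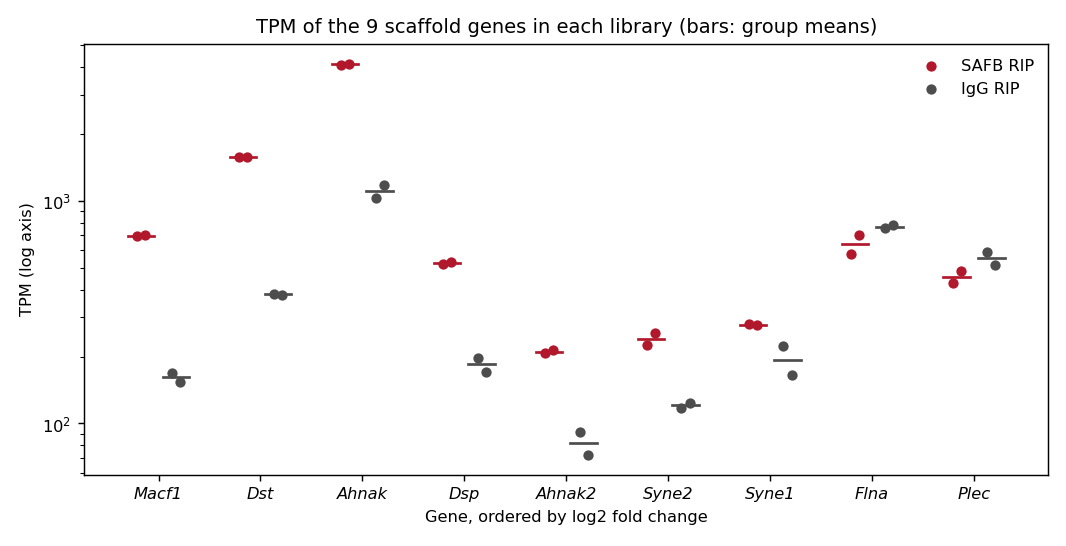
TPM on a log axis for each of the 9 genes, with both SAFB RIP libraries (red) left of both IgG RIP libraries (grey) and short bars for group means. Ahnak is the most abundant in either group, and in Flna and Plec the SAFB libraries lie below the IgG libraries.

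Macf1 (chromosome 4, 123349633 to 123684360, minus strand) had 693 and 706 TPM in the SAFB RIP, against 168 and 154 TPM in the IgG RIP. The means were 699.5 ± 8.96 TPM in the SAFB RIP and 161 ± 9.93 TPM in the IgG RIP (SD, n = 2 each), a ratio of 4.34 and the highest of the 9 genes. Its log2 fold change was 2.11 ± 0.10 (SE), or 1.65 after median centring. Both SAFB libraries were thus far above both IgG libraries, with replicates close to each other. Its paralog Dst (chromosome 1, 33908225 to 34308661, plus strand) had 1576 and 1577 TPM in the SAFB RIP, against 382 and 378 TPM in the IgG RIP. The groups did not overlap, and the log2 fold change was 2.05 ± 0.09, or 1.59 after centring. The ratio of Dst to Macf1 TPM was 2.27 and 2.23 in the SAFB libraries and 2.28 and 2.45 in the IgG libraries. Dst ranked 24th among genes tested in both SAFB libraries, and 221st and 224th in the IgG libraries.

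Dsp (chromosome 13, 38151294 to 38198577, plus strand) had 520.3 and 531 TPM in the SAFB RIP, against 198 and 171 TPM in the IgG RIP. Its groups did not overlap either, and its log2 fold change was 1.51 ± 0.11, or 1.05 after centring. Plec (chromosome 15, 76170974 to 76232574, minus strand) departed from these plakins. It had 429 and 482 TPM in the SAFB RIP, against 591 and 518 TPM in the IgG RIP. Both SAFB libraries were below both IgG libraries, by a gap smaller than the spread within either group. The log2 fold change was -0.28 ± 0.12 and was not called. After centring it was -0.74 and called lower. The ratio of Dst to Plec TPM, which does not depend on library scaling, was 3.68 and 3.27 in the SAFB libraries and 0.647 and 0.730 in the IgG libraries. Plec shares 205 exonic bases (1.13% of its own) with Parp10 on the same strand. Parp10 had 54.9 and 56.2 TPM in the SAFB RIP, against 61.5 and 66.1 TPM in the IgG RIP.

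Ahnak (chromosome 19, 8989284 to 9076914, plus strand) was the most abundant of the 9 in every library. It had 4068 and 4146 TPM in the SAFB RIP, against 1036 and 1186 TPM in the IgG RIP. It was the 8th most abundant gene tested in both SAFB libraries, and the 42nd and 35th in the IgG libraries. Both SAFB libraries were far above both IgG libraries. A single exon, described above, holds nearly all of its coding sequence. The log2 fold change was 1.89 ± 0.13, or 1.43 after centring. Ahnak made up 47.4% and 46.6% of the 9 genes' TPM in the SAFB libraries, and 29.1% and 33.5% in the IgG libraries. Ahnak2 (chromosome 12, 112772194 to 112802657, minus strand) was far less abundant, with 207 and 213 TPM in the SAFB RIP, against 91.6 and 72.02 TPM in the IgG RIP. Its groups did not overlap. Its log2 fold change was 1.36 ± 0.15, or 0.90 after centring.

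The nesprin genes differed from each other in size of change. Syne2 (chromosome 12, 75818134 to 76110926, plus strand) had 224 and 256 TPM in the SAFB RIP, against 117 and 123 TPM in the IgG RIP. Its log2 fold change was 0.99 ± 0.11, or 0.53 after centring, and it was called higher in both. Syne1 (chromosome 10, 5020917 to 5551482, minus strand) had 279.9 and 276 TPM in the SAFB RIP, against 222 and 165 TPM in the IgG RIP. The SAFB libraries were above the IgG libraries, but the 2 IgG libraries differed from each other by more than the gap between the nearest libraries of the groups. The log2 fold change was 0.53 ± 0.17 and was not called, and after centring it was 0.07. The ratio of Syne2 to Syne1 TPM was 0.802 and 0.928 in the SAFB libraries and 0.529 and 0.746 in the IgG libraries. Whether the nesprins differ was not tested, because the comparison itself chose the genes.

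Flna (chromosome X, 74223461 to 74249820, minus strand) had 579.6 and 701 TPM in the SAFB RIP, against 754 and 778 TPM in the IgG RIP. Both SAFB libraries were below both IgG libraries, and the SAFB libraries differed from each other more than the groups' nearest libraries did. The log2 fold change was -0.26 ± 0.13 and was not called. After centring it was -0.72 and called lower. The ratio of Ahnak to Flna TPM was 7.02 and 5.91 in the SAFB libraries and 1.37 and 1.53 in the IgG libraries.

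**Figure D2:**
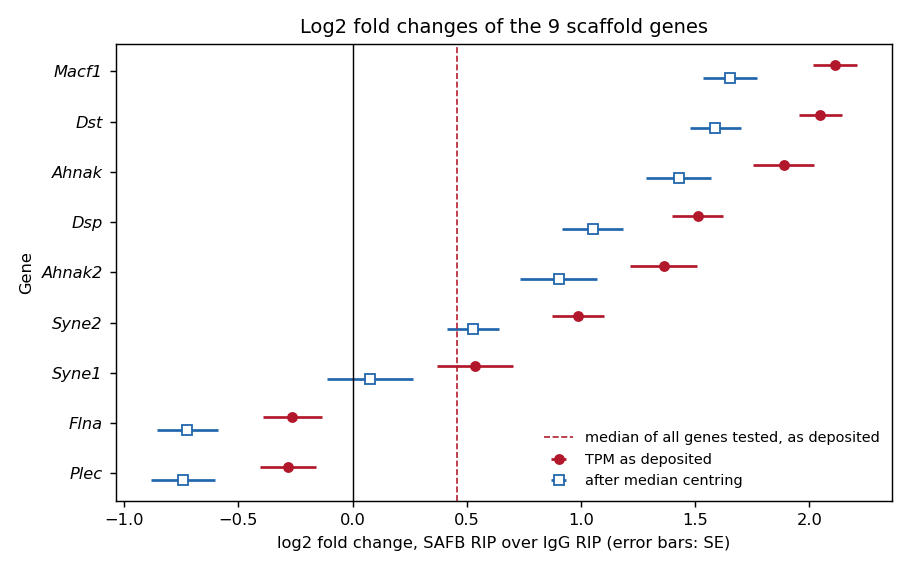
Log2 fold change of each gene, SAFB RIP over IgG RIP, as deposited (filled circles) and after median centring (open squares), with SE bars and a dashed line at 0.46, the median of all genes tested. Macf1, Dst and Ahnak stand highest, Syne1 stands near the median, and Flna and Plec stand below 0.

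The order of levels differed between the groups. In the SAFB RIP it ran Ahnak, Dst, Macf1, Flna, Dsp, Plec, Syne1, Syne2 and Ahnak2, and the ranges of neighbours overlapped only for Macf1 and Flna. In the IgG RIP it ran Ahnak, Flna, Plec, Dst, Syne1, Dsp, Macf1, Syne2 and Ahnak2, and the ranges of neighbours overlapped only for Syne1 and Dsp. Flna and Plec came directly after Ahnak with IgG, and after Macf1 and Dsp with the SAFB antibody. On the log2 scale replicate 1 minus replicate 2 ran from -0.27 (Flna) to 0.02 (Syne1) in the SAFB RIP and from -0.20 (Ahnak) to 0.42 (Syne1) in the IgG RIP. The median absolute difference over all genes tested was 0.17 in the SAFB RIP and 0.37 in the IgG RIP.

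The adjusted p-values, more than the fold changes, depended on having both SAFB libraries. Without SAFB replicate 1, limma called 0 of the 9 genes higher, with 6 at an unadjusted p under 0.05 and 767 genes called higher in all. Without SAFB replicate 2 it called 0, with 6 at an unadjusted p under 0.05 and 782 in all. With 1 SAFB library left out, the fold changes of the 6 genes called higher moved little. Without SAFB replicate 1 and without replicate 2 that of Ahnak was 1.90 and 1.87, beside 1.89 with all libraries, that of Macf1 was 2.13 and 2.10, beside 2.11, and that of Syne2, which moved most of the 6, was 1.08 and 0.89, beside 0.99. The lone SAFB library is then assumed to vary like the IgG libraries. Leaving out an IgG library moved some fold changes more. Without IgG replicate 1 and without IgG replicate 2, that of Ahnak was 1.79 and 1.99. That of Ahnak2 was 1.53 and 1.19, and that of Syne1 was 0.75 and 0.32. Those of Syne2 (0.95 and 1.02) and Flna (-0.29 and -0.24) moved less than without a SAFB library.

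The genes whose profile over the 4 libraries was most like that of Ahnak were Cast, Mterf4, Gdi2, Ext1 and Kansl1. Likeness was the Euclidean distance between log2(TPM + 1) values centred on each gene's mean, among 1843 other genes with a mean of at least 100 TPM. Symbols that are Gm with digits or end in Rik were left out of these. The distances were 0.07 for Cast, 0.07 for Mterf4, 0.08 for Gdi2, 0.08 for Ext1 and 0.09 for Kansl1. Cast, the calpastatin gene, had 214 and 216 TPM in the SAFB RIP, against 50.7 and 59.1 TPM in the IgG RIP. Of the other scaffold genes Dst was nearest to Ahnak, in 27th place at 0.22, and Plec was farthest, in 1331st place at 2.19. With 4 libraries, this likeness mostly measures the size of the difference between the groups.

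The 9 genes differ widely in exon structure and base composition. All lie among the longest coding models, from the 96.2th percentile (Ahnak2) to the 99.99th (Syne1, 26397 coding bases) of the 11928 protein-coding genes tested that have a coding model. The longest coding exon was 16623 bases in Ahnak, 6213 in Plec, 5331 in Macf1, 5292 in Dst, 4586 in Ahnak2 and 3234 in Dsp. It was 2161 bases in Syne1, 2104 in Syne2 and 598 in Flna. Called higher were 5 of the 6 genes with an exon of at least 3000 bases, all but Plec, and 1 of the other 3, Syne2. Of all genes tested, 29.8% were called higher. Nothing is read from this split, because the 9 genes were proposed with results of these data known. Syne1 and Syne2 spread their coding sequence over 145 and 115 exons, Dst and Macf1 over 103 and 98, and Ahnak over 3. GC content of the coding sequence was 47.4% in Macf1, 47.7% in Ahnak, 49.9% in Syne2, 50.2% in Dst, 50.8% in Syne1, 52.2% in Dsp, 53.7% in Flna, 61.6% in Plec and 64.3% in Ahnak2, with a median of 52.9% over all 11928 genes. The GC content of Ahnak2 comes from an incomplete model. Ahnak2 was called higher and Plec was not, and nothing is read from this either.

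Outside the 9 genes, long coding exons went with higher values. Of 138 other genes tested with a coding exon of at least 3000 bases, 97 were called higher and 3 lower in limma, with a median log2 fold change of 1.36. After centring 73 were higher and 7 lower, with a median of 0.90. Over all 11928 protein-coding genes with a model, 3376 were called higher and 1212 lower, with a median of 0.34, and after centring 1732 were higher and 2606 lower. Of the 51 other genes with at least 10000 coding bases, 25 were called higher and 7 lower, with a median of 0.71, but after centring 16 were higher and 12 lower, with a median of 0.25. Among these 51, the 14 that also have such an exon had 10 higher, 1 lower and a median of 1.19, and the 37 without one had 15 higher, 6 lower and a median of 0.66. After centring the 14 had 9 higher and 2 lower, and the 37 had 7 higher and 10 lower. The 1 lower gene among the 14 as deposited was Pkd1, the polycystin-1 gene, at -0.80, named here after its values were seen.

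GC content moved with the same difference. Protein-coding genes were put in 4 equal bins of 2982 by GC content after the data had been seen. From the lowest GC to the highest, median log2 fold changes were 0.99, 0.51, 0.06 and -0.23. After centring they were 0.53, 0.05, -0.40 and -0.69. The 138 genes with long exons split into 93 at or below the median GC content, with 79 higher, 1 lower and a median of 1.66, and 45 above it, with 18 higher, 2 lower and a median of 0.66. After centring the 93 had 65 higher and 2 lower, and the 45 had 8 higher and 5 lower. Over the 11928 genes a straight line on GC content had an R squared of 21.98% for log2 fold change. A line on log2 length of the whole transcript had 2.61%. No line was fitted on the longest coding exon, so these values do not compare GC content with exon length. With the GC line removed, the fold changes of the 9 genes ran from 2.09 (Ahnak2) to -0.26 (Flna), and Plec moved to 0.26. With the length line removed Syne1 stood at -0.048. The part of GC content and exon length in the result was not tested.

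**Figure D3:**
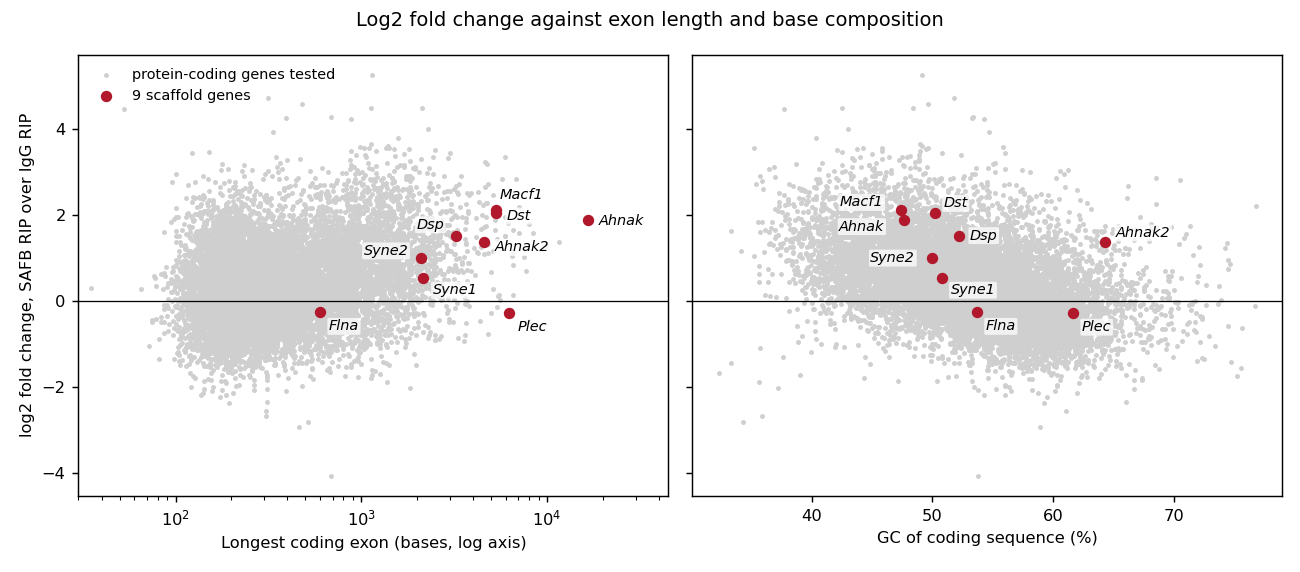
Log2 fold change, SAFB RIP over IgG RIP, against the longest coding exon in bases (left, log axis) and the GC content of the coding sequence (right) for the 11928 protein-coding genes tested (grey) and the 9 scaffold genes (red). Plec lies below 0 at an exon of 6213 bases, and Ahnak2, whose coding model is incomplete, lies at 1.36 at 64.3% GC.

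The density of GAAGA in the coding sequence did not follow the order of the 9 genes. It was 6.59 per kilobase in Dsp, 5.87 in Syne2, 4.92 in Dst, 4.43 in Syne1, 4.03 in Macf1, 2.98 in Plec, 2.88 in Ahnak2, 2.52 in Flna and 1.94 in Ahnak. The median over all 11928 genes was 3.26 per kilobase, and 92.5% of them hold the word at least once. The words were counted on the coding strand with overlaps allowed. Ahnak holds 33 copies in its coding sequence and stands at the 25.7th percentile by density. Syne2 holds 121, the most of all 11928 genes. The reverse complement TCTTC was rarer in each of the 9, from 0.192 per kilobase in Ahnak2 to 1.63 in Macf1, with a median of 1.43 over all genes. The 11928 genes were also put in 4 equal bins by GAAGA density after the data had been seen. From the lowest density to the highest, median log2 fold changes were -0.09, 0.16, 0.49 and 0.79. After centring they were -0.55, -0.30, 0.03 and 0.33. No such bins were made for TCTTC. The parts of GAAGA density and of GC content in these medians were not tested. A match of these letters is a description of the sequence and not a binding site.

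Counts for the related lists are set here beside those for all genes tested, of which 29.8% were called higher and 8.3% lower as deposited, and 16.4% and 17.6% after centring. Other genes of the same families were called in both directions. Of 11 tested in the list of other plakins, spectrins, dystrophins, actinins and filamins, 4 were called higher and 2 lower, with a median log2 fold change of 0.71. After centring 3 were higher and 4 lower, with a median of 0.25. Ppl, the periplakin gene, had 730.1 and 707 TPM in the SAFB RIP, against 213 and 199.6 TPM in the IgG RIP, and rose by 1.79 ± 0.09. The spectrin genes Sptbn1 (1.26 ± 0.10) and Sptan1 (0.81 ± 0.12) and the utrophin gene Utrn (1.19 ± 0.09) rose as well. Sptan1 was not called after centring, at 0.35. Actn4, an actinin gene, stood at -0.09 ± 0.13 and was not called as deposited, but was called lower after centring, at -0.55. Flnc, the filamin C gene, was called lower (-0.71 ± 0.15). It had 34.7 and 38.7 TPM in the SAFB RIP, against 64.7 and 56.8 TPM in the IgG RIP. Utrn and Flnc are named here after their values were seen.

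Genes of the LINC complex and nuclear envelope were mostly not called as deposited, 14 of 19, against 10301 of all 16647 genes tested. The SUN protein genes Sun1 (-0.34 ± 0.13) and Sun2 (-0.16 ± 0.13), named after their values were seen, were not called. After centring both were called lower, at -0.80 and -0.62. Of 19 tested in the list of LINC complex and nuclear envelope genes, 2 were called higher and 3 lower, with a median log2 fold change of -0.16. After centring 1 was higher and 8 were lower, with a median of -0.62, against 16.4% and 17.6% of all genes. Lmna, the lamin A and C gene, stood at -0.35 ± 0.14 and Tmem43 at -0.22 ± 0.13, neither called as deposited. Both were called lower after centring, at -0.81 for Lmna and -0.68 for Tmem43. Tor1aip2, a gene for a torsin-binding protein, stood at 0.44 ± 0.18 and was not called. Tmpo, which encodes lamina-associated polypeptide 2, rose by 0.73 ± 0.19, and was not called after centring, at 0.27. The other gene called higher was Ankle2 (1.002 ± 0.115), and Banf1 (-0.89 ± 0.15), Lemd2 (-0.80 ± 0.21) and Tmem201 (-1.06 ± 0.24) were called lower, all named after their values were seen.

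Of 6 tested among Ahnak's partners, limma called 3 higher and 0 lower (3 and 0 at an unadjusted p under 0.05), with a median of 0.65, where 29.8% of all genes were called higher and 8.3% lower. After centring limma called 0 in either direction, with 1 higher and 0 lower at an unadjusted p under 0.05. S100a10 (0.63 ± 0.13), Myof, the myoferlin gene (0.67 ± 0.10), and Cacnb2, a calcium channel subunit gene (1.03 ± 0.21), rose. Anxa2 stood at 0.18 ± 0.13 and was not called. None of these 4 was called after centring, at 0.17, 0.21, 0.57 and -0.28, beside 1.43 for Ahnak.

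Intermediate filament and junction genes were called lower more often than higher. Of 12 tested in the list, 1 was called higher and 4 lower, with a median of -0.05, against 29.8% and 8.3% of all genes. After centring 1 was higher and 5 were lower, with a median of -0.51, against 16.4% and 17.6%. Krt8 (-0.04 ± 0.13) and Krt18 (0.03 ± 0.11), the hepatocyte keratins to which plectin and desmoplakin bind, were not called, nor was Krt7 (0.003 ± 0.23). Krt19 fell by 0.62 ± 0.15 on the log2 scale. Pkp4, which encodes a plakophilin, was called higher (0.88 ± 0.10), and Perp (-0.90 ± 0.18), Itgb4 (-0.83 ± 0.22) and Cd151 (-1.21 ± 0.14) were called lower, named after their values were seen.

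Focal adhesion and cortical actin genes went both ways. Of 17 tested, 7 were called higher and 5 lower, with a median of 0.44, against 29.8% and 8.3% of all genes. After centring 4 were higher and 6 lower, with a median of -0.024. Ezr, which encodes ezrin, rose by 1.34 ± 0.10, and Itgb1, the integrin beta 1 gene, by 0.74 ± 0.17 as deposited, standing at 0.28 and not called after centring. The cytoplasmic actin genes Actb (-1.65 ± 0.37) and Actg1 (-0.82 ± 0.09) fell. Actb had 296 and 445 TPM in the SAFB RIP, against 837 and 1554 TPM in the IgG RIP. Zyx (-0.61 ± 0.15), Pxn (-0.84 ± 0.14) and Fblim1 (-0.67 ± 0.13), which encode focal adhesion proteins, were called lower too and are named after their values were seen.

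Of 20 microtubule regulator genes, 10 were called higher and 1 lower, with a median of 0.57, against 29.8% and 8.3% of all genes. After centring 6 were higher and 3 lower, with a median of 0.11. Map4, a microtubule-associated protein gene, rose by 2.001 ± 0.118, beside 2.11 for Macf1 and 2.05 for Dst. Clasp1 (0.22 ± 0.11), Dync1h1, the dynein heavy chain gene (-0.23 ± 0.13), and Dctn1 (-0.56 ± 0.16) were not called as deposited, and after centring Dync1h1 (-0.69) and Dctn1 (-1.02) were called lower. The gene called lower as deposited was Klc1, a kinesin light chain gene (-0.58 ± 0.14), named after its values were seen.

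Genes for other giant proteins, listed as outside the cytoskeleton, were called higher more often than lower. The list also holds Cenpe, a kinesin gene, and Akap9 and Pcnt, genes for centrosomal proteins, all called higher. Of 33 tested, 23 were called higher and 4 lower, with a median of 0.93, against 29.8% and 8.3% of all genes. After centring 16 were higher and 6 lower, with a median of 0.47, against 16.4% and 17.6%. Apob, the apolipoprotein B gene, rose by 1.03 ± 0.13, Usp9x, a deubiquitinase gene, by 1.21 ± 0.18 and Huwe1, a ubiquitin ligase gene, by 0.53 ± 0.09. Huwe1 was not called after centring, at 0.07. Cenpe (3.02 ± 0.64), Cenpf (2.91 ± 0.41), Mki67 (2.83 ± 0.18), Golgb1 (2.47 ± 0.22) and Ranbp2 (2.28 ± 0.25) had higher log2 fold changes than Macf1 (2.11 ± 0.10). They are named after their values were seen. Ranbp2 differed from Macf1 by less than its own SE. Levels in the IgG RIP were low for Cenpe, at 0.213 and 2.78 TPM, and for Cenpf, at 2.42 and 5.57 TPM. Trrap fell by 0.69 ± 0.17 on the log2 scale, and Ubr4 (-0.67 ± 0.10), Lrp1 (-0.78 ± 0.16) and Kmt2d (-0.50 ± 0.12), named after their values were seen, were lower too. The giant genes of the muscle sarcomere were nearly all too low to test: 1 of 8 was tested, Myom1, at 0.66 ± 0.50 and not called, and Ttn, the titin gene, reached at most 0.0331 TPM.

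**Figure D4:**
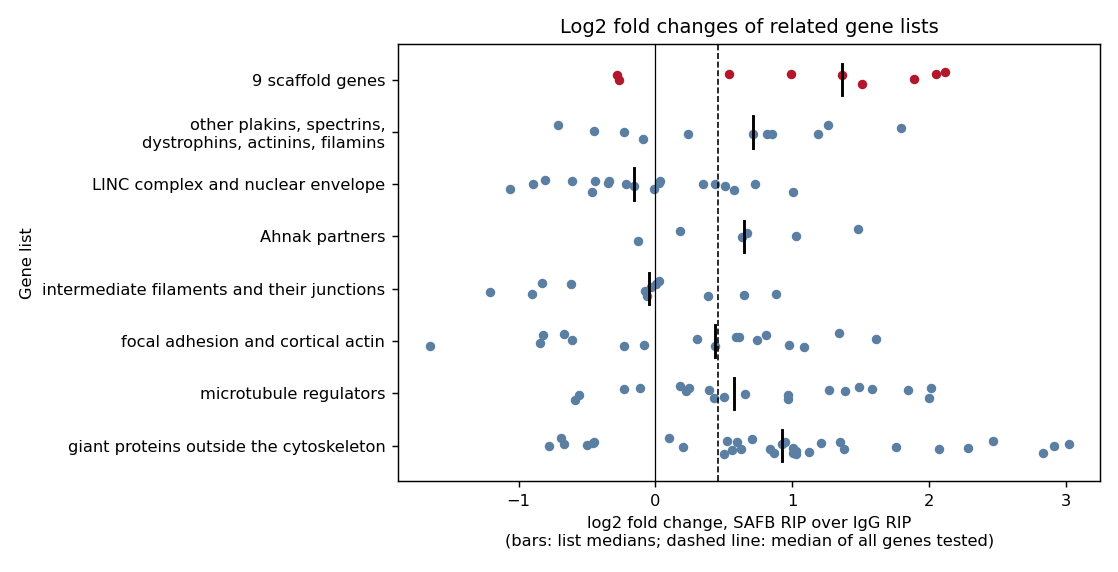
Log2 fold changes, SAFB RIP over IgG RIP, of the 9 scaffold genes (red) and of the genes tested in 7 related lists (blue), with a black bar at each list's median and a dashed line at 0.46, the median of all genes tested. The nuclear envelope and intermediate filament lists have medians of -0.16 and -0.05, below the line, and the scaffold genes spread from -0.28 to 2.11.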

How the data were processed

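The authors deposited 1 table of TPM values per gene and library. HISAT2, StringTie, HTSeq, DESeq2 and mm10 appear, with no role, in the submitters' processing notes. Sources used here name neither the tool behind the TPM nor its annotation or strand setting, so values of overlapping genes are uncertain. Entries sharing an identifier were summed (14 entries, 6 identifiers). A gene was tested if 2 or more libraries had 1 TPM or more. Tests used log2(TPM + 1), which understates the change of low genes, with limma 3.58.1 in R 4.3.3, a variance trend and no replicate block. The fit had 2 residual and 2.50 prior degrees of freedom. The procedure was tested on simulated data: where few genes changed it recovered none of them, and where many did it recovered larger changes more often than smaller ones, so genes that were not called may still differ. Alternatives numbered 15, 1 of them (the GC line) chosen after seeing the data.

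The 9 genes, the 8 related lists and the tests were chosen with earlier results of these data known. The text names the 9 genes, Safb, the 4 genes with most TPM on average in each list (fewer in short lists), the 5 genes most like Ahnak, and others where it says so. Gene features come from the coding model with the longest coding sequence. Eppk1 and Sptbn5 of the lists were not analysed here. Some items are not reported here.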

Additional observations from a re-analysis of the deposited data

How the results depend on the processing

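Of the 9 genes, the 6 called higher were called under both other pseudocounts, both other filters, no variance trend and all 3 other scalings. With a replicate block 7 were called, Syne1 added, and 4797 genes were higher and 1264 lower in all. The deviations of same-numbered libraries correlated at -0.02 across genes. The labels do not say whether a number marks a shared lysate, and whether it does was not tested. Median centring gave 2736 genes higher and 2935 lower, quantile normalization 2758 and 2986, and protein-coding genes alone 2600 and 2322, against 4964 and 1382 as deposited. Leaving out 1 library gave 0 to 7 of the 9 genes higher, 767 to 7627 genes higher and 7 to 2566 lower. The low ends came without either SAFB library. Without IgG RIP replicate 1, 6865 were higher and 2262 lower, and without IgG RIP replicate 2, 7627 and 2566. Plec reversed to 0.26 with the GC line removed and Syne1 to -0.048 with the length line removed. Medians reversed to -0.024 for focal adhesion genes after centring, and under quantile normalization to -0.15 for other plakins, spectrins, dystrophins, actinins and filamins and to -0.50 for Myom1, the only sarcomere gene tested. The cause was not tested. Depth is unknown, and 2 libraries a group limit every error given.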
